A study of Oryza sativa Indica Group with 10 samples.

Results

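The heat shock, chaperone and proteasome genes of rice were followed in seedlings with raised or lowered OsbZIP48, a basic leucine zipper transcription factor. They were chosen by name alone, from gene symbols and synonyms that start with HSP or HSF, that read RPN or RPT with a number, or that read PA or PB with a letter A to G. This gave 58 of the 17905 genes that had a probe set paired with a single gene. Of these, 43 were chaperone or heat shock factor genes, with 20 heat shock factors, 19 small heat shock proteins, and 4 genes of the HSP90 family or HSP101. The other 15 were proteasome genes, with 10 of the 20S core and 5 of the 19S regulatory particle. A further 7 genes fit the names but had no such probe set, namely HSP16.9C, HSP18.9, HSP19.0, HSFC2B, HSFA6A, HSFB4C and PBG.

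Transcripts were measured on 10 one-colour Affymetrix rice arrays, with 2 biological replicates in each of 5 groups, all from light-grown whole seedlings of the Indica cultivar Pusa Basmati 1 kept at 28 °C. The OE group over-expressed OsbZIP48. The KD lethal group carried the OsbZIP48 knock-down and showed a lethal phenotype, and the KD wild-type-like group carried the knock-down but looked like wild type. The B4NU and pANDA groups carried empty vectors, of which pANDA is built for RNA interference. The labels do not pair vectors with transgenes, and here OE was set against B4NU and both KD groups against pANDA. The age is 10 days in the labels and 7 days in the design text, and RNA extraction is described for roots although the samples are labelled as whole seedlings. The labels do not give the promoters, the number of independent lines or how many seedlings were pooled. The replicates are called biological, with no word on separate cultures, so the p-values measure the spread between these samples.

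Cells keep proteins folded with chaperones and remove damaged ones through the proteasome. Heat shock factors are transcription factors that switch on small heat shock proteins, HSP90 and HSP101; class A factors carry an activation domain, and many class B factors act as repressors. Small heat shock proteins hold unfolding proteins, HSP101 pulls aggregates apart, and HSP90 matures signalling proteins. In the proteasome, the 19S particle recognises, unfolds and deubiquitinates substrates, and the 20S core cuts them inside a barrel of alpha and beta rings.

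All values are the deposited log2 probe set values, and each gene is represented by its brightest probe set. A gene is said to rise or fall where limma gave an adjusted p under 0.05 over all 57258 probe sets. A group is called at the floor where neither of its arrays exceeded the smallest value of its set by over 0.5. HSP16.6, HSP17.8, HSP21.9 and HSFA2A were at the floor in all 5 groups. The target itself was not checked, because the annotation used pairs OsbZIP48 with none of the probe sets. The B4NU and OE arrays and the pANDA and KD arrays carry the marks of 2 separate normalizations, so no test was made between them on levels.

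Several arrays and tissues moved with the groups. The OE replicates correlated at 0.950 and the KD lethal replicates at 0.981, against 0.993 to 0.998 in the other groups. The signal of control probe sets at the 3′ end over the 5′ end and middle stood at -0.16 for OE replicate 1 and at 0.37 for KD lethal replicate 2, against 0.91 to 1.85 on the other 8 arrays. Of 5 green shoot marker genes, 5 fell in KD lethal seedlings relative to pANDA (median -3.99), and the log2 of their summed signal was 11.11 to 11.46 in KD lethal seedlings, against 14.23 to 14.26 in pANDA seedlings. Of 7 root marker genes, 4 fell and 1 rose (median -5.03), with a log2 sum of 6.21 to 6.23 in KD lethal seedlings, against 10.97 on both pANDA arrays, and 3 of them (IRT1, NAS1 and NAS2) were at the floor in KD lethal seedlings, against 2 in pANDA seedlings. None of 6 seed storage genes passed in that comparison, and 5 of them were at the floor in both groups. In OE seedlings 2 of 5 green shoot markers fell, with a log2 sum of 13.36 to 13.85, against 14.33 to 14.34 in B4NU seedlings. Of the root markers 1 rose and 1 fell there, with a log2 sum of 10.02 to 10.93 in OE seedlings, against 10.66 to 10.74 in B4NU seedlings. The part of these shifts in the results below was not tested, and in whole seedlings fewer cells of a type and less RNA per cell cannot be told apart.

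Proteasome genes were higher in the lethal knock-down. Of 15 genes, 6 rose and 0 fell in KD lethal seedlings relative to pANDA, and 14 of 15 had a positive difference, with a median of 1.06 on the log2 scale. Over all probe sets 12.2% were called in this comparison, 6.83% as higher and 5.4% as lower. Over genes with 1 probe set each 26.2% were called, 14.5% higher and 11.7% lower with a median of 0.02. Over the 4963 genes whose mean log2 value was at least 6, as it was for all 15 proteasome genes, 36% were called, 17.8% higher and 18.2% lower with a median of 0.11. The KD lethal arrays lay above both pANDA arrays for 14 of the 15 genes, the exception being PBC1. The share of all genes so separated was not computed. A positive difference was found for 56.02% of genes with 1 probe set each, and for 53.5% of those with a mean of at least 6.

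PAE1 (LOC4350922), an alpha ring subunit of the 20S core, had log2 values of 9.59 and 9.81 in KD lethal seedlings, against 7.71 and 8.0 in pANDA seedlings. The groups lay well apart, and the difference was 1.85 ± 0.13 (SE of the fit, 3.60-fold, adjusted p = 0.000955). Standard errors and intervals here and below rest on 1 moderated error estimate per probe set, shared by all 5 groups of 2 arrays. The spread of groups outside a comparison therefore enters them too. PBD1 (LOC4333803), a beta ring subunit, had 9.91 and 10.01 in KD lethal seedlings, against 8.38 and 8.42 in pANDA seedlings. It rose by 1.56 ± 0.26 (adjusted p = 0.0171), and the arrays of each group were nearly equal. PAF1 (LOC4328215), another alpha subunit, had 8.57 and 8.81 in KD lethal seedlings, against 7.45 and 7.39 in pANDA seedlings, a rise of 1.27 ± 0.23 (adjusted p = 0.0218). The other 7 core genes did not pass. PAA1 came closest in size, with 9.17 and 9.64 in KD lethal seedlings, against 7.97 and 7.99 in pANDA seedlings (1.43, 95% interval 0.43 to 2.42, adjusted p = 0.0895). PBB1 had a similar margin (1.06, interval 0.42 to 1.70, adjusted p = 0.0568). PBC1, a beta subunit, lay at 8.82 and 8.29 in KD lethal seedlings, against 8.74 and 8.55 in pANDA seedlings. Its interval of -1.76 to 1.57 leaves room for a change in either direction. The shared error estimate behind it includes the OE arrays, which lay at 6.78 and 8.91 (SD 1.5, against 0.37 in KD lethal and 0.13 in pANDA seedlings).

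In the 19S particle, RPN11 (LOC4324379), the deubiquitinase of the lid, had 8.73 and 8.86 in KD lethal seedlings, against 7.53 and 7.68 in pANDA seedlings. The groups did not overlap, and the rise was 1.19 ± 0.11 (2.28-fold, adjusted p = 0.00226). RPT1 (LOC4340376), an ATPase of the base, had 8.18 and 8.61 in KD lethal seedlings, against 7.35 and 7.32 in pANDA seedlings, a rise of 1.06 ± 0.18 (adjusted p = 0.0198). The gene named RPN2 (LOC4324876) had 9.0 and 9.17 in KD lethal seedlings, against 7.39 and 7.41 in pANDA seedlings, a rise of 1.69 ± 0.21 (adjusted p = 0.00616). Its locus also carries the name RPN-II, which in other species is ribophorin II of the oligosaccharyl transferase, so its place in the proteasome rests on the symbol alone. Without it, 5 of 14 proteasome genes rose, with a median of 1.03. The lid genes RPN5 and RPN7 had differences of 0.99 and 0.94 and did not pass (adjusted p = 0.410 and 0.140). The plot of proteasome genes by array shows this pattern gene by gene.

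**Figure D1:**
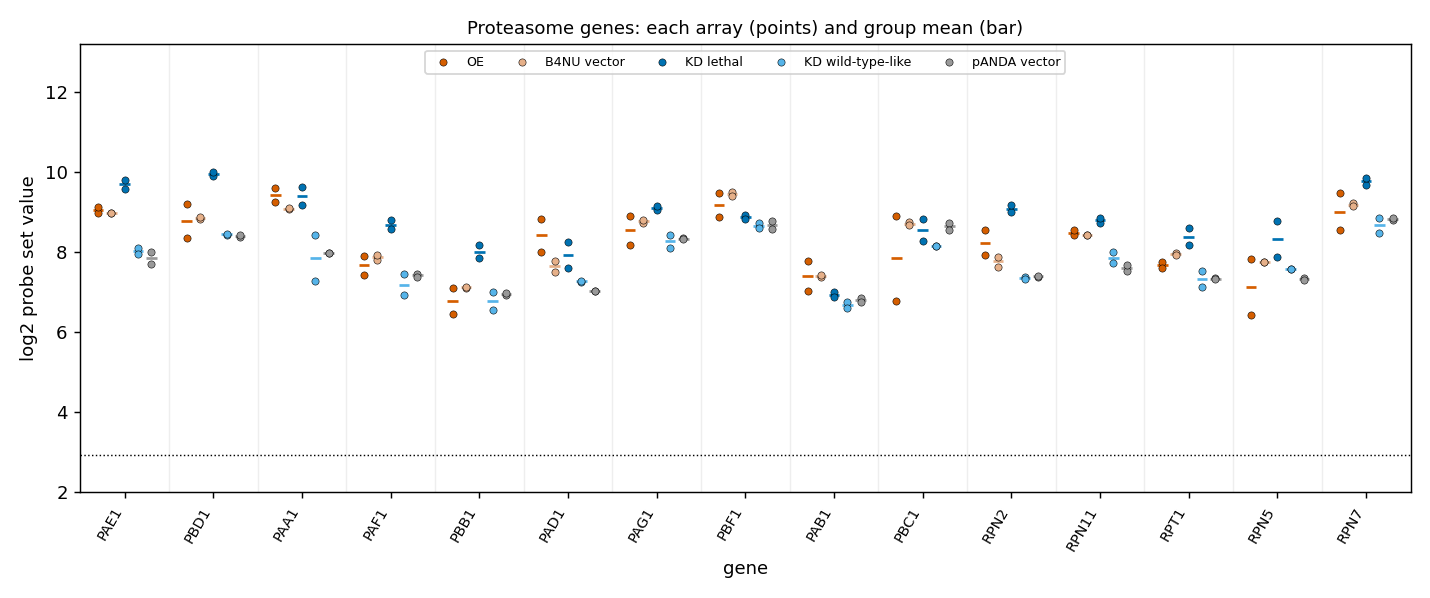
Log2 probe set values (vertical axis) of the 15 proteasome genes (horizontal axis; 20S core first, then 19S), with a point for each of the 10 arrays and a bar for each group mean; the dotted line marks the floor. KD lethal points lie above both pANDA points in 14 of 15 genes, a share not computed over all genes. The KD wild-type-like and pANDA means differ by at most 0.49.

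These counts depended on single arrays and on the arrays that share the error estimate. Without pANDA replicate 1, pANDA replicate 2 or KD lethal replicate 2 they were 3 of 15 each, and 2 of 15 in a fit over the 4 arrays compared. PAE1, RPN2 and RPN11 passed in each of the 10 fits that left out 1 array; PAF1 (adjusted p up to 0.104), PBD1 (up to 0.0837) and RPT1 (up to 0.0950) did not. Arrays were also centred on the probe sets that were above the floor on every array of their normalization set. Centring lowers the difference between KD lethal and pANDA by 0.11, and with it 11 of 15 rose and 0 fell. Over all 57258 probe sets the calls were 10246 with centred arrays, 2786 over the 4 arrays compared, 5197 without pANDA replicate 1, 4959 without pANDA replicate 2 and 6844 without KD lethal replicate 2.

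The small heat shock proteins moved in both directions in KD lethal seedlings. Of 43 chaperone and heat shock factor genes, 7 rose and 4 fell relative to pANDA, and the 16.3% that rose is near the 14.5% over all genes. Among the 19 small heat shock protein genes 4 rose and 2 fell, with a median of -0.01. HSP16.9A (LOC4325697), a cytosolic small heat shock protein, had 7.87 and 7.43 in KD lethal seedlings, against 3.60 and 3.07 in pANDA seedlings. Both KD lethal arrays were far above both controls, a difference of 4.31 ± 0.43 (19.9-fold, adjusted p = 0.00314). HSP26.2 (LOC4340508) had 8.36 and 8.15 in KD lethal seedlings, against 5.11 and 5.01 in pANDA seedlings, a rise of 3.20 ± 0.21 (9.18-fold, adjusted p = 0.000741). HSP18.1 (LOC4332361) had 5.81 and 6.16 in KD lethal seedlings, against 3.38 on both pANDA arrays, a rise of 2.61 ± 0.11 (6.10-fold, adjusted p = 0.000213). On its brightest probe set HSP18.0 (LOC4325342) rose by 1.57 ± 0.32, with 5.38 and 5.92 in KD lethal seedlings, against 4.15 and 4.01 in pANDA seedlings (adjusted p = 0.0333). A dimmer probe set of HSP18.0 gave a larger difference of 2.80 (adjusted p = 0.00665). It had 5.25 and 5.27 in KD lethal seedlings, and was at the floor in pANDA seedlings. The remaining probe set of HSP18.0 was at the floor in both groups.

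The largest fall among the 58 genes in this comparison was that of HSP18.8 (LOC4343386). It had 7.46 and 6.77 in KD lethal seedlings, against 10.59 and 10.66 in pANDA seedlings, a difference of -3.51 ± 0.39 (11.4-fold lower, adjusted p = 0.00426). The brightest probe sets of HSP18.8, HSP26.2, HSP18.0 and 5 more of the 58 genes are of the kinds that can match other transcripts. The signal of these genes may therefore not be their own alone. HSP23.2 (LOC4335956) had 2.64 and 2.55 in KD lethal seedlings, which is at the floor, against 3.21 and 3.07 in pANDA seedlings (-0.55, adjusted p = 0.00711), so no fold is given.

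Several small heat shock protein genes lie next to each other. On chromosome 1, HSP16.6, HSP17.9B, HSP16.9C, HSP16.9A and HSP16.9B follow one another with no gene between them in the RefSeq annotation. In KD lethal seedlings relative to pANDA, HSP16.9A differed by 4.31 and HSP16.9B by 0.91 (adjusted p = 0.199), HSP17.9B by -0.10 (adjusted p = 1.00), and HSP16.6 was at the floor. On chromosome 3, HSP17.4, HSP18.1 and HSP17.7 are adjacent, with HSP17.9A 4 genes away. There HSP18.1 differed by 2.61, HSP17.4 by 0.61 (adjusted p = 0.631), HSP17.7 by -1.08 (adjusted p = 0.252) and HSP17.9A by 0.69 (adjusted p = 0.169). These neighbours were chosen by position. Differences between neighbours were not tested, and the genes are alike in sequence, so that a probe set may also read a neighbour.

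**Figure D2:**
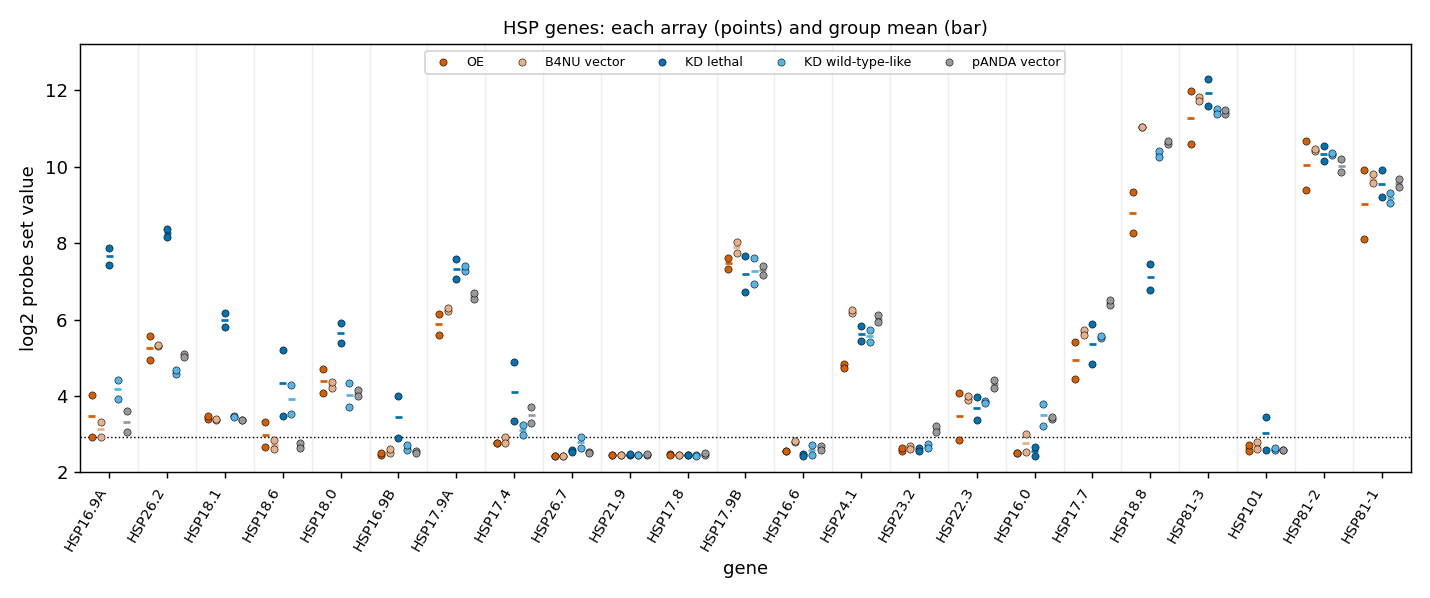
Log2 probe set values (vertical axis) of 19 small heat shock protein genes and of the 4 genes of the HSP90 family and HSP101 (horizontal axis), with a point per array, a bar per group mean and a dotted line at the floor. KD lethal points stand high for HSP16.9A, HSP26.2 and HSP18.1 and low for HSP18.8, and the OE points of the HSP81 genes are spread by over 1 unit.

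Of the 4 HSP90 and HSP101 genes 0 passed limma in KD lethal seedlings relative to pANDA, and 0 had an unadjusted p under 0.05. HSP81-3 (LOC4347405), a cytosolic HSP90, had 12.29 and 11.58 in KD lethal seedlings, against 11.37 and 11.48 in pANDA seedlings (0.51, 95% interval -0.69 to 1.71). Dimmer probe sets of HSP81-3 gave larger differences, with the groups apart and neither passing limma. They were 1.77 (interval -0.98 to 4.53, adjusted p = 0.513) and 1.02 (interval -0.04 to 2.09, adjusted p = 0.269). Its remaining probe sets were at the floor in both groups. HSP81-2 had 10.55 and 10.14 in KD lethal seedlings, against 10.20 and 9.87 in pANDA seedlings, and HSP81-1 had 9.90 and 9.20, against 9.69 and 9.46, with overlapping groups for both genes. HSP101 (LOC4339343), the disaggregase, had 3.46 and 2.60 in KD lethal seedlings, against 2.60 on both pANDA arrays, so that 1 array rose clear of the floor (0.43, interval -0.25 to 1.11). On the brightest probe sets KD lethal replicate 1 was above replicate 2 for all 4 genes, by a median of 0.70. Dimmer probe sets of HSP81-3 (7.19 and 8.86) and HSP81-1 (4.26 and 4.30) had replicate 2 higher, while another of HSP81-3 did not (9.50 and 8.85).

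Among the 20 heat shock factors 3 rose and 2 fell in KD lethal seedlings relative to pANDA (median 0.44). These shares of 15% and 10% are near the 14.5% and 11.7% over all genes. HSFA1 (LOC4334826), of the class that in tomato and Arabidopsis acts as master regulator of the heat response, had 6.98 and 7.70 in KD lethal seedlings, against 5.28 and 5.64 in pANDA seedlings. The groups did not overlap, and the rise was 1.88 ± 0.27 (3.69-fold, adjusted p = 0.0107). HSFB1 (LOC4347259), a class B factor whose Arabidopsis namesake represses heat shock genes, had 8.22 and 8.93 in KD lethal seedlings, against 7.16 on both pANDA arrays, a rise of 1.41 ± 0.25 (adjusted p = 0.0196). HSFC1A had 4.04 and 3.85 in KD lethal seedlings, against 2.73 and 2.77 in pANDA seedlings, which is at the floor (1.20, adjusted p = 0.00600). HSFB2C (LOC4347637) fell by 2.02 ± 0.46, with 4.10 and 3.66 in KD lethal seedlings, against 5.97 and 5.82 in pANDA seedlings (adjusted p = 0.0484). HSFA3, which in Arabidopsis acts in drought and heat responses, fell by 0.83 ± 0.15, with 4.87 and 4.75 in KD lethal seedlings, against 5.61 and 5.68 in pANDA seedlings (adjusted p = 0.0225).

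The chaperone counts also moved with single arrays. Of 11 genes that passed, 6 did so without pANDA replicate 1, and 7 without pANDA replicate 2, B4NU replicate 1 or B4NU replicate 2. In a fit over the 4 arrays compared the count over the 43 genes was 3, all as higher, of which HSP18.1 and HSP26.2 were among the 11. HSP16.9A, HSP18.1, HSP18.8, HSP23.2, HSP26.2 and HSFC1A passed in each of the 10 fits that left out 1 array. HSFA1 was lost in 1 of them (without pANDA replicate 1, adjusted p = 0.0590), HSFB1 in 4 (adjusted p up to 0.0922), HSP18.0 in 5 (up to 0.149), HSFA3 in 6 (up to 0.111) and HSFB2C in 8 (up to 0.187). With centred arrays 20 of 43 passed, 12 as higher and 8 as lower, and HSP23.2 did not.

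**Figure D3:**
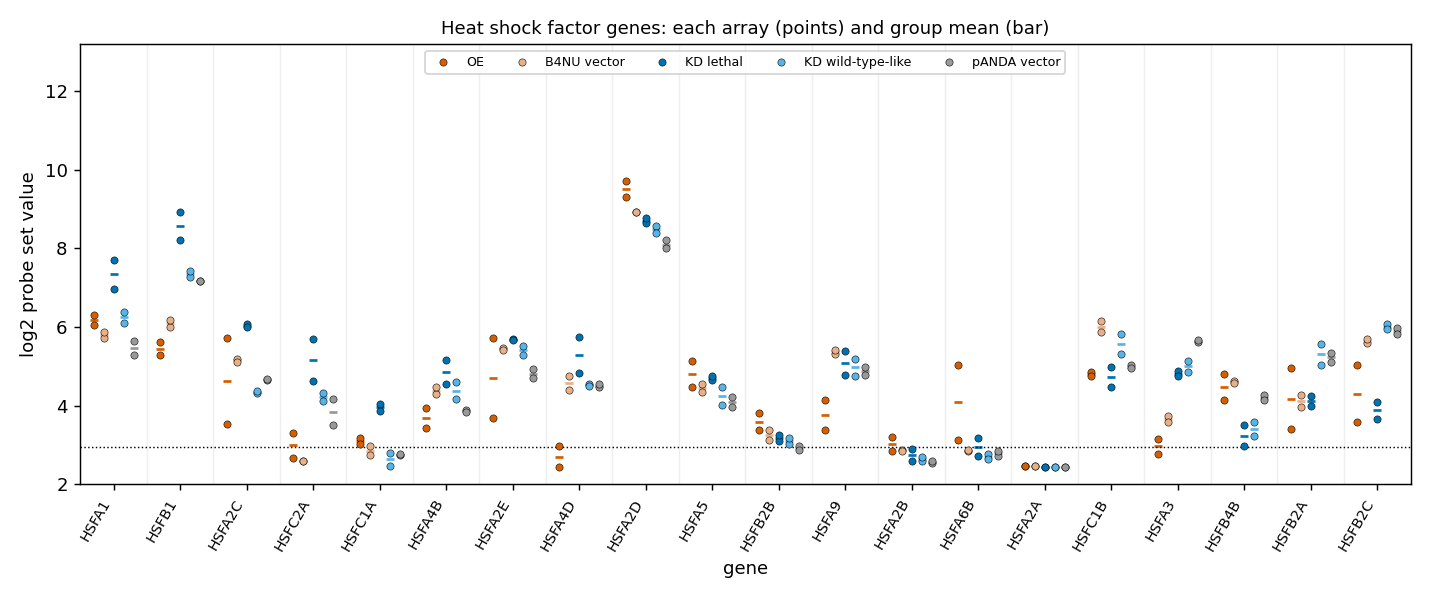
Log2 probe set values (vertical axis) of the 20 heat shock factor genes (horizontal axis), with a point per array, a bar per group mean and a dotted line at the floor. HSFA1, HSFB1 and HSFC1A stand highest in KD lethal seedlings, and HSFB2C is low on the KD lethal arrays and on OE replicate 1.

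Of 23 co-chaperone and organelle chaperone genes outside the name rule, 8 rose and 0 fell in KD lethal seedlings relative to pANDA (median 1.05). That is 34.8% higher, where 14.5% of all genes rose and 11.7% fell. Several belong to the secretory pathway, with DJC43 (also named ERDJ2) and DJB6 (ERDJ3B), J-domain partners of the luminal HSP70, rising by 2.15 ± 0.47 (adjusted p = 0.0424) and 1.55 ± 0.30 (adjusted p = 0.0284). BIP1 (LOC4328075), that luminal HSP70, had 9.06 and 9.71 in KD lethal seedlings, against 8.42 and 8.26 in pANDA seedlings, a rise of 1.05 ± 0.21 (adjusted p = 0.0304). The protein disulfide isomerases PDIL1-1, PDIL2-2, PDIL2-3 and PDIL5-2 rose by 1.31 to 1.65. SGT1 (LOC4326682), a co-chaperone that works with HSP90 in plant immunity, had 8.74 and 9.04 in KD lethal seedlings, against 6.84 and 6.95 in pANDA seedlings, a rise of 2.00 ± 0.25 (4.0-fold, adjusted p = 0.00611).

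Among 11 genes of ubiquitin transfer and the unfolded protein response 2 rose and 0 fell in that comparison (median 0.23), and the 18.2% that rose is near the 14.5% over all genes and the 17.8% over genes with a mean of at least 6. Both encode transcription factors of the endoplasmic reticulum stress response. BZIP50 (LOC4341554), whose transcript is spliced by IRE1, had 7.87 and 7.67 in KD lethal seedlings, against 6.81 and 6.72 in pANDA seedlings (1.00 ± 0.17, adjusted p = 0.0164). BZIP60 rose by 0.68 ± 0.09 (adjusted p = 0.00846), with 5.81 and 5.93 in KD lethal seedlings, against 5.12 and 5.25 in pANDA seedlings. None of 7 autophagy genes passed limma, and 0 had an unadjusted p under 0.05 (median 0.26).

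**Figure D4:**
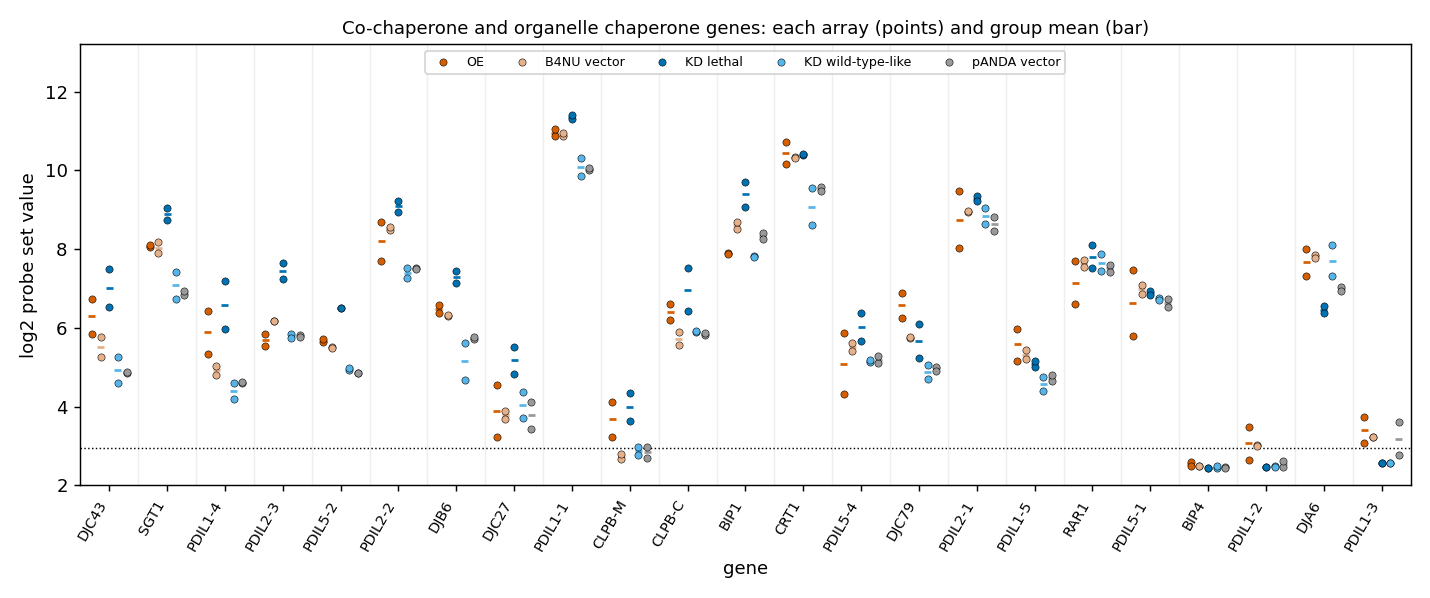
Log2 probe set values (vertical axis) of 23 co-chaperone and organelle chaperone genes (horizontal axis), with a point per array, a bar per group mean and a dotted line at the floor. KD lethal points stand above the KD wild-type-like and pANDA points for SGT1, the PDIL genes that rose and BIP1.

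Of the 58 genes 0 passed limma in KD wild-type-like seedlings relative to pANDA, where 0.243% of all probe sets were called (0.0978% higher, 0.145% lower). An unadjusted p under 0.05 was seen for 8 of the 58 genes, and for 2819 of all 57258 probe sets. Over genes with 1 probe set each 0.363% were called (0.134% higher, 0.229% lower), and over those with a mean of at least 6 it was 0.242% (0.161% higher, 0.0806% lower). The median difference was 0.01 over the 58 genes and -0.04 over the proteasome genes. PAE1 had 8.11 and 7.95 in KD wild-type-like seedlings, against 7.71 and 8.0 in pANDA seedlings, and HSP26.2 had 4.57 and 4.67, against 5.11 and 5.01. Neither gene came near its KD lethal level. The larger differences among the HSP genes and factors were 1.23 for HSP18.6 (95% interval -0.30 to 2.75), for which pANDA was at the floor, -0.90 for HSP17.7 (-2.0 to 0.20), 0.85 for HSP16.9A (-0.24 to 1.94), 0.79 for HSFA1 (0.11 to 1.48) and -0.78 for HSFB4B (-1.51 to -0.06). Intervals of this width leave room for changes of 2-fold and more. Without KD wild-type-like replicate 1 the count was 1, the gene being HSP26.7, which was named after its value was seen.

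Set directly against each other, the KD lethal seedlings differed from the KD wild-type-like seedlings in proteasome genes. Of the 15 proteasome genes 7 rose and 0 fell (median 1.08), where 11.2% of all probe sets were called (6.48% higher, 4.72% lower). Over genes with 1 probe set each 23.8% were called (13.6% higher, 10.2% lower), and over those with a mean of at least 6 it was 33.9% (15.6% higher, 18.3% lower). All 15 had both KD lethal arrays above both KD wild-type-like arrays. The share of all genes so separated was not computed. A positive difference was found for 56.8% of genes with 1 probe set each, and for 53.1% of those with a mean of at least 6. RPN2 differed by 1.73 ± 0.21 (adjusted p = 0.00621), PAE1 by 1.67 ± 0.13 (adjusted p = 0.00141), and PBB1, which had not passed against pANDA, by 1.23 ± 0.25 (adjusted p = 0.0376). Of the 43 chaperone and heat shock factor genes 6 rose and 2 fell, and the 14.0% that rose is near the 13.6% over all genes. HSP26.2 differed by 3.64 ± 0.21 (12.4-fold, adjusted p = 0.000550), HSP16.9A by 3.47 ± 0.43 (11.1-fold, adjusted p = 0.00700) and HSP18.1 by 2.52 ± 0.11, while HSP18.8 differed by -3.23 ± 0.39 (adjusted p = 0.00609). This comparison shares its KD lethal arrays with the one against pANDA. The proteasome count was 3 without KD lethal replicate 2, 4 without either B4NU array, either pANDA array or KD wild-type-like replicate 2, and 2 in a fit over the 4 arrays compared. The chaperone count was 5 without any of those B4NU, pANDA and KD wild-type-like arrays, and 2 in a fit over the 4 arrays compared. HSFC1A, HSP16.9A, HSP18.1, HSP18.8, HSP26.2, PAE1, RPN2 and RPN11 passed in each of the 10 fits that left out 1 array.

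Over-expression left most of the 58 genes below the threshold. In OE seedlings relative to B4NU 1 gene fell and 0 rose, where 1.4% of all probe sets were called, 0.327% as higher and 1.07% as lower. Over genes with 1 probe set each 2.88% were called (0.542% higher, 2.33% lower), and over those with a mean of at least 6 it was 3.75% (0.463% higher, 3.28% lower). HSP24.1 (LOC4330786), a small heat shock protein, had 4.85 and 4.72 in OE seedlings, against 6.17 and 6.25 in B4NU seedlings, a difference of -1.42 ± 0.17 (2.68-fold lower, adjusted p = 0.0268). Its groups lay apart and its replicates were close. It was lost in 6 of the 10 fits that left out 1 array (each of the B4NU, pANDA and KD wild-type-like arrays, adjusted p up to 0.104).

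Among the genes that did not pass, HSP18.8 had the widest gap, with 8.26 and 9.33 in OE seedlings, against 11.03 on both B4NU arrays (-2.24, 95% interval -3.21 to -1.26, adjusted p = 0.0815). HSFA4D (LOC4339409), known in rice as the spotted leaf gene Spl7, had 2.4 and 2.97 in OE seedlings, against 4.39 and 4.76 in B4NU seedlings (-1.87, interval -2.73 to -1.01, adjusted p = 0.0958). HSFA9 had 3.37 and 4.15 in OE seedlings, against 5.31 and 5.41 in B4NU seedlings (-1.61, interval -2.43 to -0.78, adjusted p = 0.129). HSFB2C had 3.58 and 5.02 in OE seedlings, against 5.60 and 5.70 in B4NU seedlings (-1.35, interval -2.51 to -0.20, adjusted p = 0.430). In each of these 4 genes both OE arrays were below both B4NU arrays, and the OE replicates of HSFB2C and HSP18.8 were over 1 unit apart.

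Of the 15 proteasome genes 0 passed limma in OE seedlings and 0 had an unadjusted p under 0.05, with a median of -0.18, against -0.05 over all genes and -0.29 over genes with a mean of at least 6. PAE1 had 8.98 and 9.13 in OE seedlings, against 8.99 and 8.97 in B4NU seedlings. PAD1, an alpha subunit, had 8.84 and 8.01 in OE seedlings, against 7.51 and 7.78 in B4NU seedlings (0.78, interval -0.04 to 1.60). PBC1 showed how far the OE arrays differed, with 6.78 and 8.91 in OE seedlings, against 8.75 and 8.67 in B4NU seedlings. On the brightest probe sets OE replicate 1 was below OE replicate 2 in 41 of the 58 genes, by a median of 0.51. It was also below in all 4 of the HSP90 and HSP101 genes, by a median of 1.34. Dimmer probe sets of HSP81-3 went the other way on the OE arrays (9.70 and 6.56, and 8.75 and 7.59). That of HSP81-1 did not (3.09 and 3.70). None of 23 co-chaperone genes passed limma. An unadjusted p under 0.05 was seen for 4 of them, and for 4957 of all 57258 probe sets.

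The result in OE seedlings turned on which of these arrays was kept. Without OE replicate 1, 3 of 43 chaperone and heat shock factor genes passed (2 higher, 1 lower) and 1 of 15 proteasome genes (higher). Without OE replicate 2, the counts were 12 (1 higher, 11 lower) and 4 (1 higher, 3 lower). Calls over all 57258 probe sets moved as well, to 2645 (1636 higher, 1009 lower) without OE replicate 1 and to 12772 (7139 higher, 5633 lower) without OE replicate 2, against 802 with both, so the shift was not one of these genes alone. PBD1, chosen after these values were seen, passed as higher in the first fit and as lower in the second. Centring the arrays raised the OE difference from B4NU by 0.28 and gave 7 chaperone genes (1 higher, 6 lower) and 1 proteasome gene (higher). Over all probe sets it turned a split of 187 higher and 615 lower calls into one of 1222 and 1615.

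**Figure D5:**
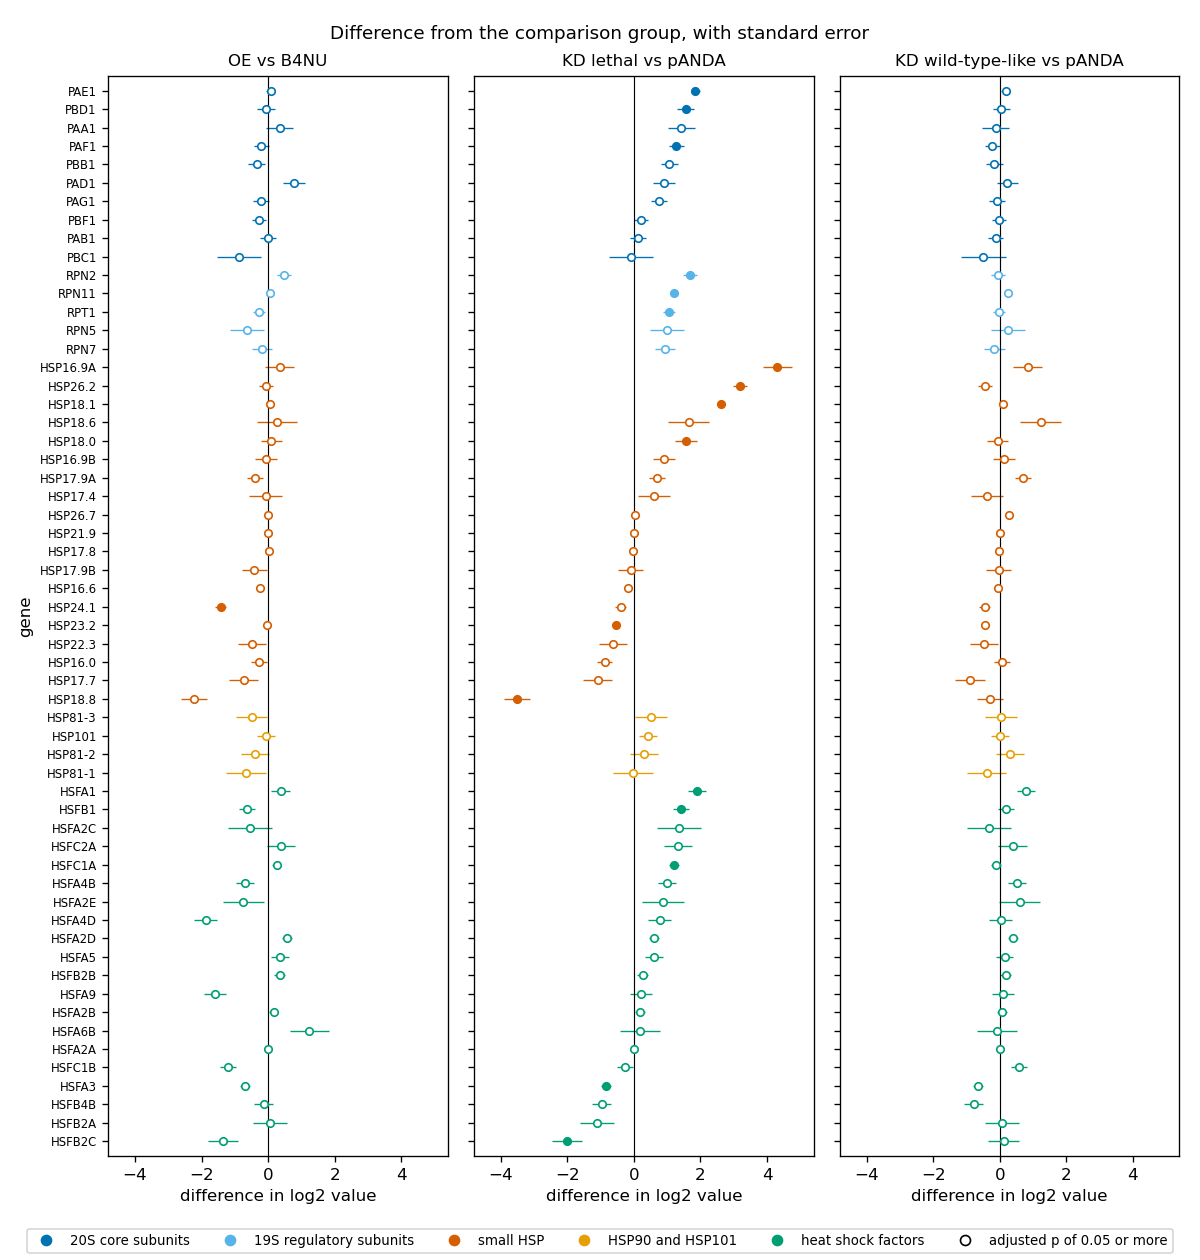
Differences in log2 value (horizontal axis) for the 58 genes (vertical axis) in OE against B4NU, KD lethal against pANDA and KD wild-type-like against pANDA seedlings, with standard errors; filled points had an adjusted p under 0.05. The proteasome points lie to the right in the KD lethal panel (median 1.06) and around 0 in the KD wild-type-like panel (median -0.04).

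Whether OE and KD lethal seedlings differed in their shift from the vectors was tested as the OE difference from B4NU minus the KD lethal difference from pANDA. Of the 58 genes 7 passed, all below 0, where 5.55% of all probe sets were called (2.1% higher, 3.45% lower). Over genes with 1 probe set each 11.7% were called (4.56% higher, 7.18% lower), and over those with a mean of at least 6 it was 16.2% (7.66% higher, 8.58% lower). They were HSP16.9A (-3.96 ± 0.61, adjusted p = 0.0251), HSP26.2 (-3.26 ± 0.29, adjusted p = 0.00484), HSFA4D (-2.65 ± 0.49, adjusted p = 0.0417), HSP18.1 (-2.54 ± 0.16, adjusted p = 0.00149), HSFB1 (-2.05 ± 0.35, adjusted p = 0.0329), PAE1 (-1.77 ± 0.18, adjusted p = 0.00727) and RPN11 (-1.14 ± 0.15, adjusted p = 0.0165). HSFA4D stands out among them in that its OE difference was the larger one, at -1.87, beside 0.78 in KD lethal seedlings. For HSP16.9A, HSP26.2, HSP18.1, PAE1 and RPN11 the OE difference lay between -0.06 and 0.35. The proteasome differences were all below 0, with a median of -1.14, against -0.12 over all genes and -0.40 over genes with a mean of at least 6. Differences above 0 made up 39.5% of all genes and 36.4% of genes with a mean of at least 6.

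Of the co-chaperones 5 passed the same test, among them PDIL2-3 (-2.13 ± 0.22, adjusted p = 0.00706) and SGT1 (-1.95 ± 0.35, adjusted p = 0.0391), and so did BZIP50 (-1.84 ± 0.23, adjusted p = 0.0143). PDIL2-3 had 5.55 and 5.85 in OE seedlings, against 6.18 and 6.17 in B4NU seedlings, and 7.25 and 7.65 in KD lethal seedlings, against 5.82 and 5.77 in pANDA seedlings. BZIP50 had 5.53 and 5.90 in OE seedlings, against 6.61 and 6.49 in B4NU seedlings. HSP18.1, HSP26.2 and PAE1 passed in each of the 10 fits that left out 1 array. HSFA4D, HSFB1 and HSP16.9A were each lost in 7 (adjusted p up to 0.138) and RPN11 in 3 (up to 0.0676). The chaperone count of 5 was 2 without any one of the B4NU, pANDA or KD wild-type-like arrays and 12 without OE replicate 2. The proteasome count of 2 was 1 without B4NU replicate 1, B4NU replicate 2 or pANDA replicate 1, 4 without OE replicate 1 and 11 without OE replicate 2, where the calls over all probe sets were 5882 and 13919. Centring moved this difference by 0.39 over all genes and turned 1202 higher and 1978 lower calls into 3442 and 2786.

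Between the vector controls, the pANDA mean was below the B4NU mean in 15 of 15 proteasome genes, by a median of 0.45, and the KD lethal mean was above the B4NU mean in 12 of 15, by a median of 0.44. PAE1, for example, averaged 9.70 in KD lethal, 7.85 in pANDA and 8.98 in B4NU seedlings. HSFB1 averaged 8.57 in KD lethal, 7.16 in pANDA and 6.09 in B4NU seedlings. Among the 43 chaperone and heat shock factor genes the pANDA mean was below the B4NU mean in 28. The KD lethal mean was above the B4NU mean in 25 of those 43. The shares over all genes were not computed, so neither count shows a trait of proteasome genes. Vector and normalization cannot be told apart here, so these levels carry no test.

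For 16 of the 58 genes the arrays hold more than 1 probe set. Of the 17 genes that passed in KD lethal seedlings relative to pANDA 3 had a further probe set, which passed in the same direction for 2 and in the opposite one for 0. HSFA2D, HSP18.6, PAB1 and RPN5 passed there by a further probe set only. For HSFA2D the further probe set fell by 2.66 in KD lethal seedlings relative to pANDA and by 1.68 in OE seedlings relative to B4NU, while the brightest did not pass in either. The HSFA2D locus also carries an acireductone dioxygenase name, as does that of HSFA2C, so these probe sets may not read the factor.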

How the data were processed

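The deposited values of the 10 arrays are on the log2 scale, 1 per probe set. Per the submitters' processing notes they came from GCOS and Affymetrix Expression Console 1.4.1.46. For the summarization and normalization the method was not given in the sources used here, and the log2 scale was read from the range of the values. Of 57381 probe sets 123 controls were left out. Arrays have no read depth, so their number limits the precision. The OE and B4NU arrays bottomed out at 2.440 and the KD and pANDA arrays at 2.441. Within each of these sets, pairs of arrays had 8627 to 12749 values in common to the last digit, against 5 to 16 across sets, so the sets were treated as normalized separately. Gene names came from the platform annotation and RefSeq (assembly ASM3414082v1).

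All 57258 probe sets were fitted in R 4.3.3 with limma 3.58.1 (lmFit, eBayes, 1 coefficient per group, 5 residual degrees of freedom), with two-sided tests, Benjamini-Hochberg adjustment and no fold threshold. Members, gene lists, markers and tests were chosen with earlier results of these data known. The named genes are those that passed in any comparison, the 3 largest differences per class and comparison, and the 3 largest among pathway genes that passed; others are named with the reason. The background of genes with a mean of at least 6 was chosen after the data were seen. A pathway list left out 8 genes with BIP names of 3 digits, some of which carry unrelated further names such as BKI1, SSRP1-A and OsC3H13. The green shoot list left out 1 gene that shares the name GS2. On simulated data for KD lethal against pANDA over 57258 probe sets, changes of 1, 2 and 4 on the log2 scale were recovered in 10.4, 17.9 and 66.7% of changed probe sets, with 4 false calls. Only 67, 67 and 66 probe sets were changed there, all among the brighter ones, where the real comparison called 7000. With Benjamini-Hochberg adjustment recovery depends on the share that changes, so these rates do not give the recovery in the real comparison. Samples with the same replicate number did not deviate together (correlations of -0.57 to 0.31), so the numbers do not pair them.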

Additional observations from a re-analysis of the deposited data

Results flagged for a closer look

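The test of the OE difference from B4NU minus the KD lethal difference from pANDA marked 7 of the 58 genes as differing between OE and KD lethal seedlings in their shift from the vector controls. These were HSP16.9A (-3.96), HSP26.2 (-3.26), HSFA4D (-2.65), HSP18.1 (-2.54), HSFB1 (-2.05), PAE1 (-1.77) and RPN11 (-1.14), all on the log2 scale. The 7 genes make up 12.1% of the 58. Over genes with 1 probe set each 11.7% were called (7.18% lower). Over those with a mean of at least 6 it was 16.2% (8.58% lower). With 2 arrays per group no group was large enough to test for a single outlying sample.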

How the results depend on the processing

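Counts are of 43 chaperone and heat shock factor genes and of 15 proteasome genes that passed. Leaving out dim probe sets kept 23192, without HSP16.6, HSP17.8, HSP21.9 and HSFA2A. Over all probe sets the calls in KD lethal against pANDA were 7000. They were 2786 over the arrays compared, 10246 with centred arrays and 9176 without dim probe sets. In that order they were 802, 17, 2837 and 1426 in OE against B4NU. They were 6408, 1191, 9776 and 8595 in KD lethal against KD wild-type-like. For the OE difference minus the KD lethal difference they were 3180, 2283, 6228 and 4938. In OE against B4NU the chaperone count was 1, and it was 0 over the arrays compared, 0 with the replicate block, 7 with centred arrays, 5 with dim probe sets left out and 5 without OE replicate 1 and KD lethal replicate 2 together (0 to 12 leaving out 1 array). The proteasome count was 0, and 1 with centred arrays and 1 without that pair (0 to 4). In KD lethal against pANDA the counts were 11 and 6; they were 3 and 2 over the arrays compared, 20 and 11 with centred arrays, and 17 and 10 without dim probe sets, and the chaperone count was 22 without the pair (6 to 15 and 3 to 9 leaving out 1 array). In KD wild-type-like against pANDA both counts were 0 in each alternative, except 1 chaperone gene without KD wild-type-like replicate 1 (0 to 1). In KD lethal against KD wild-type-like the counts were 8 and 7; they were 2 and 2 over the arrays compared, and the chaperone count was 15 with centred arrays and 15 without the pair (5 to 10 and 3 to 9). For the OE difference minus the KD lethal difference the counts were 5 and 2; the chaperone count was 2 over the arrays compared, 15 with centred arrays, 11 without dim probe sets and 12 without the pair (2 to 12), and the proteasome count was 5 with centred arrays and 7 without dim probe sets (1 to 11). Trend and robust moderation and the mean of all probe sets moved no count by over 1.5 times.

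The numbers do not pair the samples. With the replicate block the chaperone and proteasome counts were 8 and 5 in KD lethal against pANDA, 6 and 6 in KD lethal against KD wild-type-like, 3 and 2 for the OE difference minus the KD lethal difference, and 0 and 0 in the other comparisons.

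The sign turned in OE against B4NU for PBC1 (0.20) and RPN5 (0.067) without OE replicate 1, alone or with KD lethal replicate 2, and for RPT1 (0.017) with centred arrays. Leaving out 1 array gave -1.93 to 0.20 for PBC1 and -1.34 to 0.067 for RPN5. In KD wild-type-like against pANDA it turned without KD wild-type-like replicate 2 for PAF1 (-0.48 to 0.026 leaving out 1 array) and RPN7 (-0.34 to 0.023). None of these had passed, and the cause was not tested. Over the 82 single-gene results and 17 alternatives, 1137 combinations kept direction and side of the threshold, 195 lost the call, 55 gained one and 7 changed sign. The planned promoter motif shares were not run, since promoter sequences were not used here. With 2 arrays per group, intervals were wide.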
